A study of Homo sapiens with 6 samples.

Results

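The genes described here are 50 effector genes of the interferon response, taken as a fixed list of symbols. The list was chosen with earlier results of these data known. Transcripts of these genes were followed in the human multiple myeloma line MM.1S after knockdown of PRKCN. PRKCN is a serine/threonine kinase of the protein kinase D family, and its current symbol is PRKD3. All 50 symbols were among the 21850 genes listed in the read count table, and 47 had enough reads to be tested, of 13971 genes tested in all. The control cells (shNT, 3 libraries) were wild type by label and had been infected with a lentivirus carrying a scramble shRNA. The knockdown cells (shPRKCN, 3 libraries) had been infected with a PRKCN shRNA lentivirus. Both groups were collected at day 3, so every library came from cells exposed to lentivirus, and no uninfected library was compared. The 3 knockdown libraries shared a title stem, which does not tell them apart by hairpin, so effects of a hairpin and of PRKCN loss cannot be told apart. The labels do not say whether the libraries of a group came from separate cultures, and the p-values then measure only the spread between these libraries.

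The knockdown was visible in its target. PRKD3 had 44913, 47712 and 45531 reads in the shNT libraries and 19979, 18253 and 19998 reads in the shPRKCN libraries, with 41% of the control level left (log2 fold change -1.29, SE 0.0343, edgeR adjusted p = 8.2e-43). The libraries held between 35625564 and 37730003 counted reads each. The 8 plasma cell markers (SDC1, CD38, TNFRSF17, XBP1, PRDM1, IRF4, SLAMF7 and JCHAIN) summed to between 5280 and 5340 FPKM in shNT and between 4780 and 5020 FPKM in shPRKCN libraries. FPKM is a read count scaled to transcript length and library size. JCHAIN made up most of the plasma cell sum, at a mean of 4140 FPKM in shNT and 4240 FPKM in shPRKCN libraries (log2 fold change 0.01). IRF4, XBP1, TNFRSF17 and SLAMF7 were lower in shPRKCN libraries, at log2 fold changes of -1.85, -1.28, -1.13 and -0.97. PRDM1 was at -0.54, CD38 at -0.01 and SDC1 at 0.18. Among markers of other blood and stromal cells, the T or NK cell list summed to between 7.83 and 8.66 FPKM in shNT and to between 20.5 and 22.9 FPKM in shPRKCN libraries. That sum was almost all CD3E, which had 393, 379 and 419 reads in shNT and 1068, 1150 and 1021 reads in shPRKCN libraries, whereas CD3D, its partner in the T cell receptor complex, had at most 1 read in any library. The myeloid list (0.751 to 2.2 FPKM in shNT, 1.73 to 2.83 FPKM in shPRKCN), the stromal list (0.137 to 0.253 and 0.0834 to 0.124 FPKM) and HBB of the erythroid list (3.45 to 6.12 and 1.49 to 1.75 FPKM) were low in both groups. All libraries came from the MM.1S line, and the source of the reads on these markers was not tested.

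Interferons are secreted cytokines that bind surface receptors and activate the JAK kinases. In the type I pathway these act through a transcription factor complex that holds STAT2 and IRF9 and binds the interferon-stimulated response element (ISRE) ahead of its target genes. The products of these genes degrade or sense viral RNA, block virus entry or release, attach the ubiquitin-like protein ISG15 to other proteins, and feed back on the signal. Many of them are transcribed at some level in resting cells, and in plasma cells IRF4, another member of the IRF family, is a defining transcription factor.

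A gene was called when its Benjamini-Hochberg adjusted p over all genes tested was under 0.05 in edgeR's quasi-likelihood test and its log2 fold change was beyond 0.58 in either direction. By this limit 16 of the 47 tested members (34.0%) rose in shPRKCN cells, against 6.15% of all genes tested, and 2 members (4.26%), MX2 and ISG20, fell, against 10.6% of all genes. Without the fold limit, 31 members (66.0%) were higher at an adjusted p under 0.05, against 26.5% of all genes, and 7 (14.9%) were lower, against 27.8%. The median log2 fold change of the tested members was 0.37, with quartiles of 0.14 and 0.77, whereas the median over all genes tested was 0.0, with quartiles of -0.27 and 0.22. Of the tested members, 38 had a positive and 9 a negative log2 fold change. The counts of higher members include DDX60, IFI44L, RSAD2, CMPK2 and LGALS3BP. These 5 members had enough reads to be tested through the shPRKCN libraries alone, so the filter selected them in favour of a rise. No member entered the test through the shNT libraries alone. In such bulk libraries a change in the share of cells that transcribe a gene cannot be told apart from a change in RNA per cell.

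Most of these directions held in every library. In 32 members (68.1%) all 3 shPRKCN libraries lay above all 3 shNT libraries, which was the case for 29.0% of all genes tested, and in 7 members (14.9%) all 3 lay below, against 29.8% of all genes. All 16 members called higher were among those 32. The share without overlap among all genes called higher was not computed, so this gives no separate support. An exact 2-sided permutation test of 3 against 3 libraries cannot give a p below 0.1, so single genes rest on the fit across all genes. Each of the 3 shPRKCN libraries was the highest of its group for 5 or 6 of the 16 members called higher. Replicates 1, 2 and 3 of shPRKCN were the lowest of their group for 8, 4 and 4 of these members. Replicates 1, 2 and 3 of shNT were the lowest of theirs for 3, 7 and 6, and the highest for 7, 5 and 4. Among the 18 members with a mean of at least 1000 reads the median coefficient of variation within groups was 3.41%, and among the 11 members with a mean under 100 reads it was 31.4%.

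**Figure D1:**
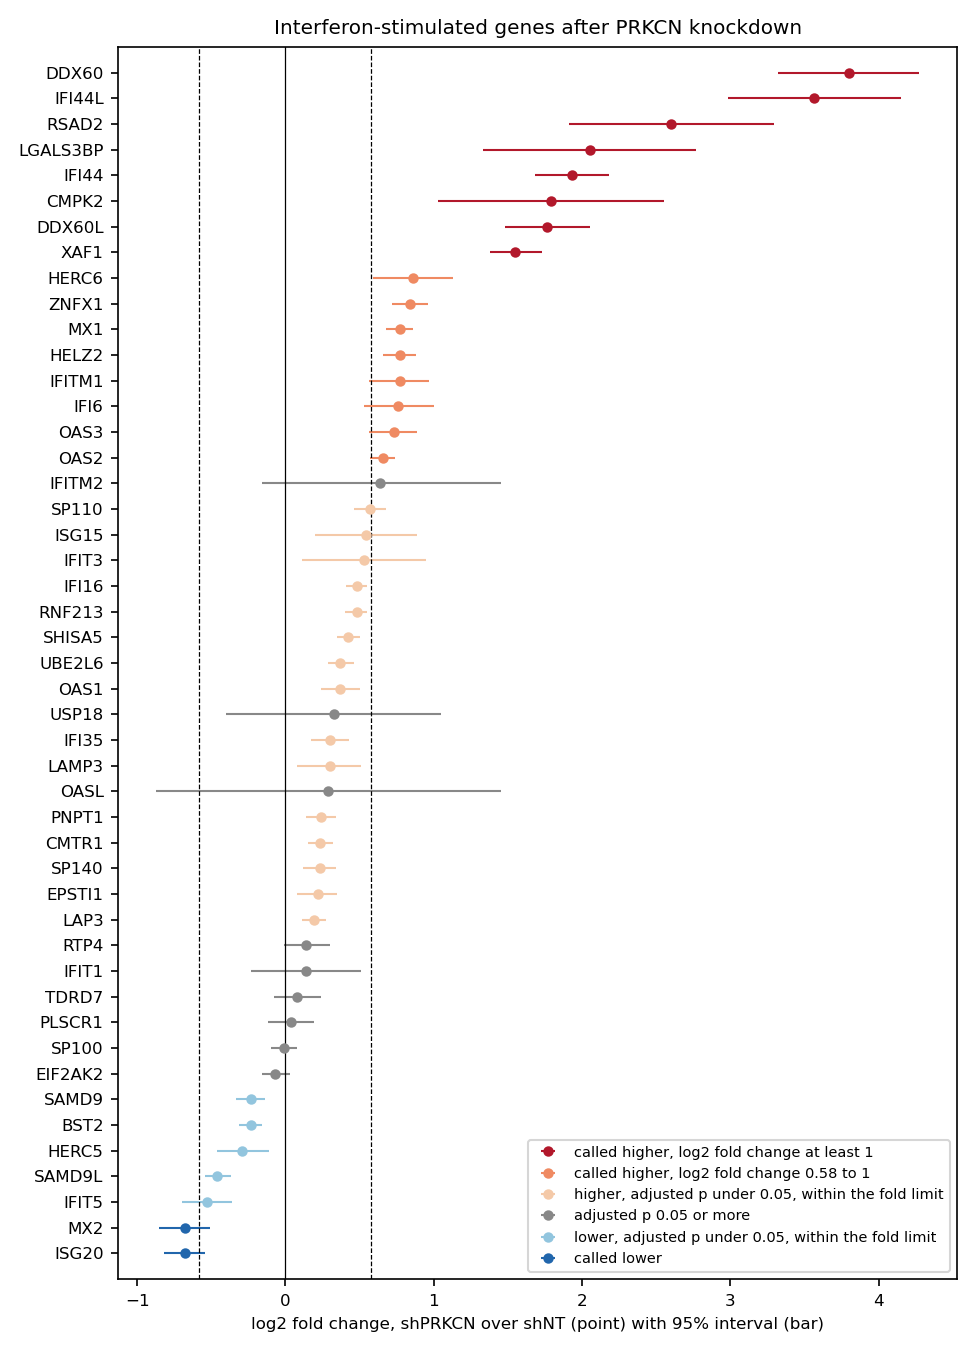
Log2 fold change of each tested member, shPRKCN over shNT, as points with 95% intervals as bars, ordered by size and coloured by call. The dashed lines mark the fold limit of 0.58 in either direction. Members run from DDX60 at 3.80 down to ISG20 and MX2 at -0.68, with 8 members at or above 1.

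The changes were graded in size. Of the 16 members called higher, 8 had a log2 fold change of at least 1 and are termed strong here. They were DDX60, IFI44L, RSAD2, LGALS3BP, IFI44, CMPK2, DDX60L and XAF1. A further 8 members rose with a log2 fold change between the limit and 1 (HERC6, ZNFX1, MX1, HELZ2, IFITM1, IFI6, OAS3 and OAS2). Another 15 were higher within the fold limit (SP110, ISG15, IFIT3, IFI16, RNF213, SHISA5, UBE2L6, OAS1, IFI35, LAMP3, PNPT1, CMTR1, SP140, EPSTI1 and LAP3). For 9 members the adjusted p was 0.05 or more (IFITM2, USP18, OASL, RTP4, IFIT1, TDRD7, PLSCR1, SP100 and EIF2AK2), and 5 were lower within the fold limit (SAMD9, BST2, HERC5, SAMD9L and IFIT5). IFI27, IFIT2 and IFITM3 had too few reads to be tested.

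Genes that sense, modify or degrade RNA formed the largest functional group, with 15 of its 16 members tested, 6 called higher and 1 called lower, and a median log2 fold change of 0.37. DDX60, a DExD/H-box helicase linked to cytoplasmic RNA sensing, had 18, 6 and 22 reads in the shNT libraries and 212, 224 and 225 reads in the shPRKCN libraries. It was nearly silent in control cells and rose 13.9-fold, the largest change of any member (log2 fold change 3.80, SE 0.238, adjusted p = 1.1e-22). Its paralog DDX60L, which lies near it on chromosome 4, had 113, 73 and 111 reads in shNT and 394, 332 and 312 reads in shPRKCN libraries, a 3.40-fold rise (log2 fold change 1.76, SE 0.145, adjusted p = 3.4e-17). The groups stood far apart in both helicases. On the RefSeq map of GRCh38.p14, DDX60 lies at chr4:168216294-168325979 and DDX60L at chr4:168356735-168480492, on the minus strand. The exons of the pair have few stretches of 50 identical bases in common, which made up 0.618% for DDX60 and 0.34% for DDX60L.

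ZNFX1 and HELZ2, helicases of RNA surveillance and of nuclear receptor coactivation, rose by similar amounts. ZNFX1 had 768, 828 and 795 reads in shNT and 1433, 1460 and 1491 reads in shPRKCN libraries (log2 fold change 0.84, SE 0.0598, adjusted p = 6.7e-20). HELZ2 had 1116, 1268 and 1181 reads in shNT and 2200, 2086 and 1944 reads in shPRKCN libraries (log2 fold change 0.77, SE 0.0552, adjusted p = 8.5e-20). In both genes the highest control library lay well under the lowest knockdown library. PNPT1, a mitochondrial exoribonuclease, and CMTR1, which methylates the first nucleotide after the mRNA cap, were higher within the fold limit, at log2 fold changes of 0.24 and 0.23. EIF2AK2, the double-stranded RNA dependent kinase PKR that halts translation, had a log2 fold change of -0.07 (95% interval -0.16 to 0.03, adjusted p = 0.22).

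The OAS enzymes, which on binding double-stranded RNA make the 2-5A second messenger that activates RNase L, did not move alike. OAS3 had 398, 449 and 429 reads in shNT and 697, 752 and 722 reads in shPRKCN libraries and rose 1.66-fold (log2 fold change 0.73, SE 0.0826, adjusted p = 9.0e-12). OAS2 had 2403, 2350 and 2379 reads in shNT and 3957, 3828 and 3767 reads in shPRKCN libraries and rose 1.58-fold (log2 fold change 0.66, SE 0.044, adjusted p = 3.0e-21). OAS1 had 764, 871 and 821 reads in shNT and 1089, 1079 and 1096 reads in shPRKCN libraries, higher in every knockdown library but within the fold limit (log2 fold change 0.37, SE 0.0639, adjusted p = 9.2e-07). These 3 genes lie side by side on chromosome 12, between 112906962 and 113011723. OASL, an OAS-like protein without the synthetase activity, is on the same chromosome but apart from them (121017761 to 121039246). It had 6, 10 and 7 reads in shNT and 11, 6 and 12 reads in shPRKCN libraries, and the groups overlapped (log2 fold change 0.29, 95% interval -0.87 to 1.45, adjusted p = 0.70).

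The IFIT genes, of which IFIT1 encodes a protein that binds viral RNA lacking the host's cap methylation, did not move together. IFIT3 had 76, 90 and 54 reads in shNT and 96, 98 and 133 reads in shPRKCN libraries and was higher within the fold limit (log2 fold change 0.53, SE 0.211, adjusted p = 0.029). The adjusted p of IFIT3 was 0.071 in DESeq2, 0.21 without shNT replicate 3 and 0.19 without shPRKCN replicate 3. IFIT1 had 95, 85 and 124 reads in shNT and 123, 107 and 114 reads in shPRKCN libraries, with groups that overlapped (log2 fold change 0.14, 95% interval -0.23 to 0.51, adjusted p = 0.55). IFIT5 had 601, 613 and 600 reads in shNT and 464, 414 and 413 reads in shPRKCN libraries, lower in every knockdown library (log2 fold change -0.53, SE 0.0869, adjusted p = 3.2e-07). IFIT5 was the most abundant of the family in control cells at 4.08 FPKM, against 0.766 FPKM for IFIT3 and 0.591 FPKM for IFIT1. IFIT2 had 7, 3 and 2 reads in shNT and 14, 3 and 4 reads in shPRKCN libraries, too few to be tested. All 4 genes lie on chromosome 10 between 89302046 and 89420997, and 10.3% of the exon bases of IFIT2 are also in exons of other genes.

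ISG20, a 3′ to 5′ exonuclease of single-stranded RNA, was lower past the fold limit. It had 1042, 969 and 1191 reads in shNT and 626, 723 and 699 reads in shPRKCN libraries, and fell to 0.623 of the control level (log2 fold change -0.68, SE 0.0705, adjusted p = 3.2e-13). Every knockdown library lay under every control library.

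**Figure D2:**
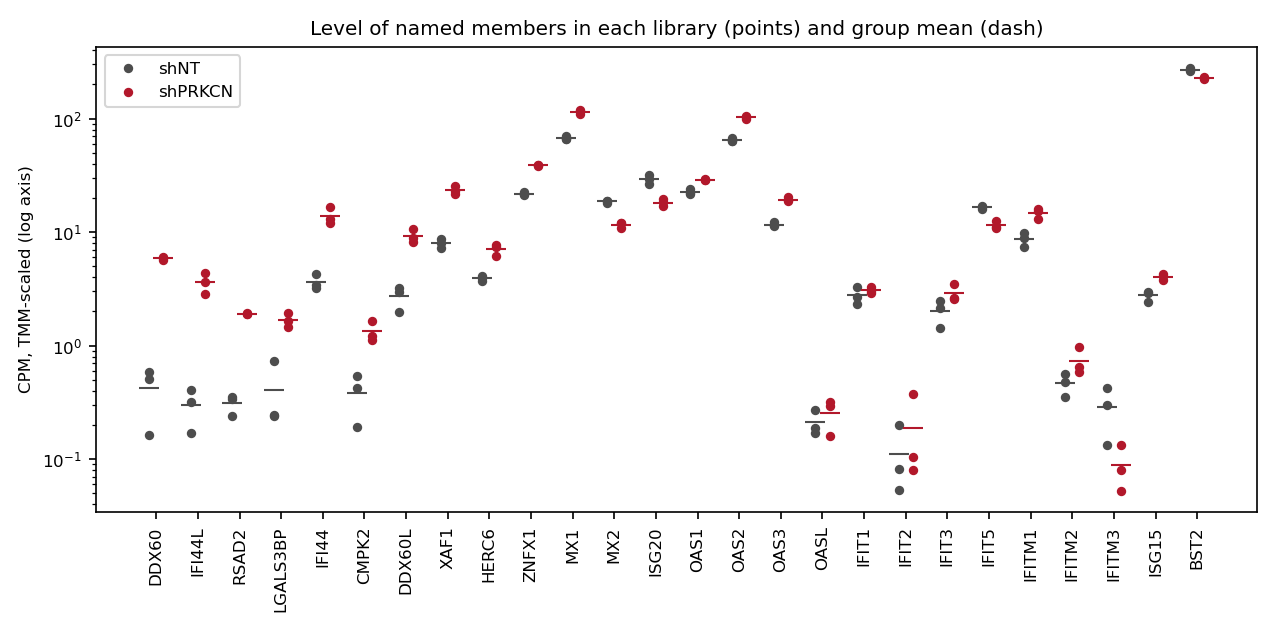
Level of named members in each library, in TMM-scaled CPM (reads scaled to library size) on a log axis, with points for libraries and a dash for the group mean (shNT grey, shPRKCN red). The group means of DDX60 and of IFI44L sit more than a log unit apart. MX1 lies above and MX2 below its control libraries, and the points of OASL, IFIT1, IFIT2 and IFITM3 overlap.

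Of the 10 large GTPases and inhibitors of viral replication or cell growth, 4 rose and 1 fell past the limit, with a median log2 fold change of 0.35. The dynamin-like GTPases MX1 and MX2, which trap viral nucleoproteins or capsids, are neighbours on chromosome 21 (MX1 at chr21:41420558-41459214, MX2 at chr21:41362027-41409393) and moved in opposite directions. MX1 had 2477, 2429 and 2462 reads in shNT and 4061, 4399 and 4442 reads in shPRKCN libraries, a 1.70-fold rise (log2 fold change 0.77, SE 0.0436, adjusted p = 8.1e-25). MX2 had 665, 669 and 700 reads in shNT and 448, 405 and 451 reads in shPRKCN libraries, and fell to 0.624 of the control level (log2 fold change -0.68, SE 0.0834, adjusted p = 1.2e-10). Neither gene's groups overlapped. The 2 genes share few sequences, since 0.213% of the 50-base stretches of MX1 occur in MX2, although 2.74% of MX1 exon bases lie opposite another transcript.

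RSAD2, which encodes viperin, and CMPK2, a mitochondrial nucleotide kinase, are transcribed away from each other on chromosome 2 and were nearly silent in control cells. RSAD2 had 12, 13 and 9 reads in shNT and 72, 70 and 72 reads in shPRKCN libraries and rose 6.07-fold (log2 fold change 2.60, SE 0.344, adjusted p = 1.2e-09). CMPK2 had 15, 7 and 20 reads in shNT and 42, 45 and 63 reads in shPRKCN libraries and rose 3.45-fold (log2 fold change 1.79, SE 0.381, adjusted p = 5.0e-05). With so few reads the intervals were wide, from 1.91 to 3.29 for RSAD2 and from 1.03 to 2.55 for CMPK2. XAF1, an antagonist of the apoptosis inhibitor XIAP, had 308, 268 and 297 reads in shNT and 949, 800 and 883 reads in shPRKCN libraries and rose 2.93-fold (log2 fold change 1.55, SE 0.0877, adjusted p = 6.3e-25). An antisense transcript, PRAL, covers 38.3% of XAF1 exon bases in GENCODE 29, and whether reads were counted by strand is not given in the sources used here, so part of the XAF1 count may be antisense.

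The sterile alpha motif proteins SAMD9 and SAMD9L, inhibitors of growth and of poxvirus replication encoded side by side on chromosome 7, were both lower within the fold limit, at log2 fold changes of -0.23 (SE 0.0468) and -0.46 (SE 0.0427). SAMD9L had 3619, 3900 and 3709 reads in shNT and 2794, 2728 and 2874 reads in shPRKCN libraries. RNF213, a giant ubiquitin ligase with an AAA+ motor, was higher within the limit in every knockdown library (log2 fold change 0.48, SE 0.0386, adjusted p = 1.8e-17), as was EPSTI1 (0.22, SE 0.0675, adjusted p = 0.0046, or 0.059 without shPRKCN replicate 1). TDRD7, a scaffold of RNA granules, had a log2 fold change of 0.08 (95% interval -0.08 to 0.24, adjusted p = 0.42).

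The remaining IFI genes and LAP3, a leucine aminopeptidase, had the highest group median, 0.76 over 5 tested of 6 members, and all 5 were higher at an adjusted p under 0.05, 3 of them past the fold limit. IFI44L, a protein related to GTPases that is used as a marker of interferon exposure in blood, had 6, 15 and 12 reads in shNT and 107, 134 and 164 reads in shPRKCN libraries and rose 11.8-fold (log2 fold change 3.56, SE 0.294, adjusted p = 4.2e-17). Its neighbour IFI44 on chromosome 1 had 150, 119 and 128 reads in shNT and 488, 442 and 627 reads in shPRKCN libraries and rose 3.81-fold (log2 fold change 1.93, SE 0.124, adjusted p = 4.1e-22). The 2 genes follow each other at chr1:78620448-78646145 and chr1:78649789-78664078 and share no 50-base stretch. IFI6, a small membrane protein of mitochondria and the endoplasmic reticulum, had 202, 200 and 209 reads in shNT and 352, 344 and 371 reads in shPRKCN libraries (log2 fold change 0.76, SE 0.116, adjusted p = 4.8e-08). LAP3 had 3533, 3760 and 3579 reads in shNT and 4301, 4285 and 4143 reads in shPRKCN libraries and was higher within the fold limit, at a log2 fold change of 0.19 (SE 0.0411), as was IFI35, at 0.30 (SE 0.0656). IFI27 had 9, 7 and 5 reads in shNT and 16, 9 and 10 reads in shPRKCN libraries, and was not tested.

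Membrane and vesicle proteins had 2 of 8 tested members called higher and none lower. The IFITM proteins, which hinder the fusion of enveloped viruses with the cell membrane, are encoded together on chromosome 11 and differ little in sequence. IFITM1 had 312, 271 and 370 reads in shNT and 487, 573 and 604 reads in shPRKCN libraries, a 1.70-fold rise (log2 fold change 0.77, SE 0.101, adjusted p = 1.2e-09). IFITM2 had 20, 13 and 18 reads in shNT and 24, 36 and 22 reads in shPRKCN libraries (log2 fold change 0.64, 95% interval -0.16 to 1.45, adjusted p = 0.18). IFITM3 had 15, 11 and 5 reads in shNT and 3, 5 and 2 reads in shPRKCN libraries, and without a filter on low counts its log2 fold change was -1.64 (SE 0.773, adjusted p = 0.091). It entered the test in 4 of the fits that left out a library and was called lower in 2 of them, at -1.98 (adjusted p = 0.02) without shNT replicate 3 and at -2.04 (adjusted p = 0.045) without shPRKCN replicate 2. Nearly all reads of the family were therefore assigned to IFITM1. Of the 50-base stretches in their exons 32.0% in IFITM1, 34.3% in IFITM2 and 35.2% in IFITM3 also occurred in another gene, so that the split between the 3 genes is uncertain.

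LGALS3BP, a secreted glycoprotein that binds galectins, had 26, 9 and 9 reads in shNT and 61, 72 and 56 reads in shPRKCN libraries and rose 4.14-fold (log2 fold change 2.05, SE 0.36, adjusted p = 1.4e-06). The control library with 26 reads stood above the other two, and without it the log2 fold change was 2.78. BST2, or tetherin, which holds budding virions at the cell surface, was the most abundant member by far at 266 FPKM in control cells. It had 9374, 9572 and 10407 reads in shNT and 8358, 8651 and 8608 reads in shPRKCN libraries, lower in every knockdown library but within the fold limit (log2 fold change -0.23, SE 0.0353, adjusted p = 4.2e-08). SHISA5, a protein of the endoplasmic reticulum and nuclear envelope linked to apoptosis, had 4586, 4779 and 5170 reads in shNT and 6529, 6712 and 6791 reads in shPRKCN libraries (log2 fold change 0.42, SE 0.0378, adjusted p = 1.0e-15). PLSCR1, the phospholipid scramblase, had a log2 fold change of 0.04 (95% interval -0.12 to 0.19, adjusted p = 0.73), and RTP4, a chaperone of G protein-coupled receptors, of 0.14 (95% interval -0.01 to 0.30, adjusted p = 0.11). LAMP3, a lysosomal membrane protein of dendritic cells, was higher within the limit at 0.30 (SE 0.107, adjusted p = 0.015), with an adjusted p of 0.059 without shNT replicate 2 and of 0.11 without shPRKCN replicate 2.

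In the ISG15 system the modifier, its conjugating enzyme and the ligase HERC5 did not change together. ISG15 itself had 105, 89 and 109 reads in shNT and 159, 151 and 144 reads in shPRKCN libraries and was higher within the fold limit (log2 fold change 0.54, SE 0.171, adjusted p = 0.0055). UBE2L6, the conjugating enzyme, had 3076, 3244 and 3165 reads in shNT and 4116, 4330 and 4170 reads in shPRKCN libraries (log2 fold change 0.37, SE 0.0415, adjusted p = 4.8e-12). HERC5, the main human ISG15 ligase, was lower within the limit, with 545, 535 and 609 reads in shNT and 492, 471 and 459 reads in shPRKCN libraries (log2 fold change -0.29, SE 0.0863, adjusted p = 0.0037). Its neighbour and relative HERC6 rose, with 132, 144 and 153 reads in shNT and 232, 275 and 294 reads in shPRKCN libraries (log2 fold change 0.86, SE 0.136, adjusted p = 1.4e-07). HERC6 was the only member of these 5 genes past the fold limit. USP18, which removes ISG15 and restrains the type I receptor, had 25, 39 and 22 reads in shNT and 42, 18 and 51 reads in shPRKCN libraries, with overlapping groups (log2 fold change 0.33, 95% interval -0.40 to 1.05, adjusted p = 0.47). In all, 23.4% of the 50-base stretches of USP18 exons occur in other genes, mainly USP41, so that its count is uncertain.

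Of the 4 nuclear members 3 were higher at an adjusted p under 0.05 and none passed the fold limit, at a median log2 fold change of 0.36. IFI16, a sensor of double-stranded DNA, had 7258, 7165 and 7542 reads in shNT and 10331, 10199 and 10967 reads in shPRKCN libraries, higher within the fold limit (log2 fold change 0.48, SE 0.0355, adjusted p = 3.0e-19). SP110 lay just under the limit at 0.57 (SE 0.0559, adjusted p = 4.9e-14), SP140 was higher at 0.23 (SE 0.0563, adjusted p = 3.9e-04), and SP100, a defining protein of PML nuclear bodies, had a log2 fold change of -0.01 (95% interval -0.10 to 0.08, adjusted p = 0.88). The direction of SP100 turned with the scaling of the libraries. In SP110, 20.9% of exon bases lie opposite another transcript.

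Members of each response class were then compared by how abundant they already were in control cells, taken as mean FPKM in the shNT libraries. The 8 strong members had a median of 0.139 FPKM in control cells (0.0412 to 1.37 FPKM), the 8 with smaller called rises 4.46 FPKM (0.93 to 12.9), the 15 higher within the fold limit 8.26 FPKM (0.766 to 65.8), and the 7 lower members between 3.79 and 266 FPKM. Not every member of low abundance was called. The 9 members with an adjusted p of 0.05 or more spanned 0.0459 to 11.3 FPKM, and OASL, USP18, IFITM2 and IFIT1 were among the low ones. The 95% intervals of OASL, USP18 and IFITM2 reached past 1, with upper ends of 1.45, 1.05 and 1.45. Their few reads therefore cannot show whether they were strong, whereas the interval of IFIT1 ended at 0.51.

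With members divided at 1 and 10 FPKM, 7 of 12 tested members under 1 FPKM rose and none fell, at a median log2 fold change of 1.31, while 13.1% of all genes of that stratum were called higher and 13.6% lower, at a median of 0.03. Between 1 and 10 FPKM, 6 of 22 rose and 2 fell at a median of 0.26, against 5.05% and 10.3% of all genes. At 10 FPKM or more, 3 of 13 rose and none fell at a median of 0.30, against 2.15% and 8.58% of all genes. A log2 fold change of at least 1 was reached by 6, 2 and 0 members of these strata, and by 7.59%, 0.948% and 0.26% of all genes in them. The strata are a description with no test. Of the 7 called members in the lowest stratum, 5 (DDX60, IFI44L, RSAD2, CMPK2 and LGALS3BP) passed the filter on low counts through the shPRKCN libraries alone. The filter thus selected these 5 in favour of a rise, whereas DDX60L and HERC6 passed in both groups. Fitted with no such filter, all 50 members gave the same 16 higher and 2 lower calls. The control level is also the denominator of the fold change, so the 2 measures share the control libraries.

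**Figure D3:**
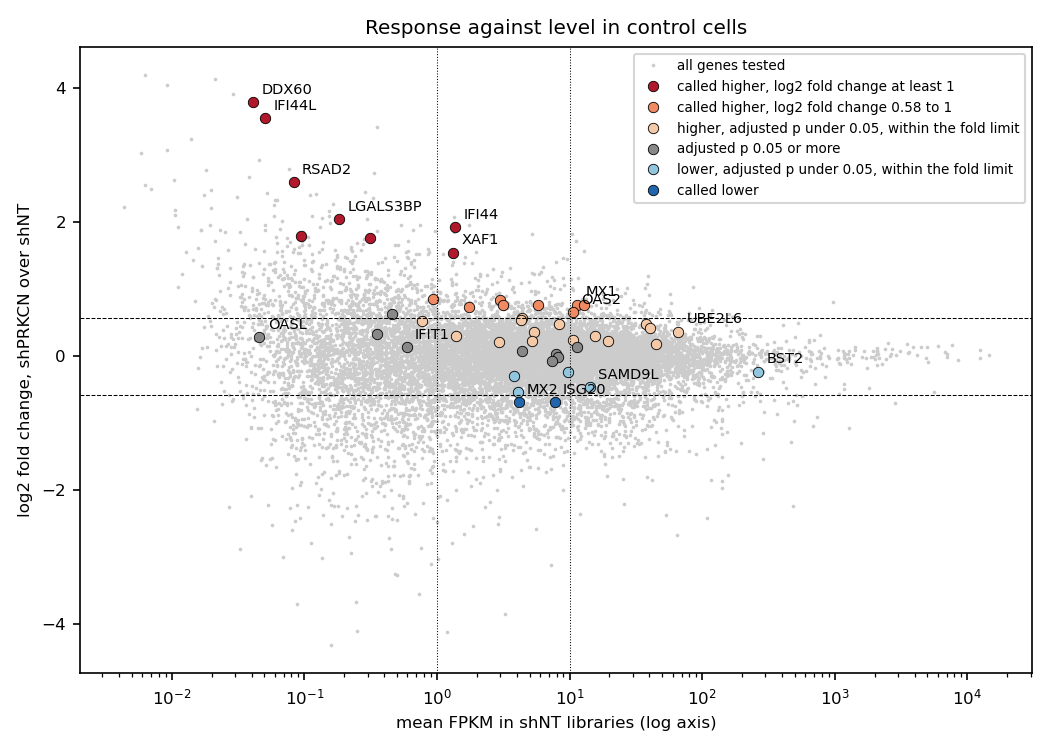
Log2 fold change of shPRKCN over shNT against mean FPKM in the shNT libraries (log axis), for all 13971 genes tested (grey dots) and the 47 tested members (coloured by call). Dotted lines mark 1 and 10 FPKM and dashed lines the fold limit. The 8 strong members lie at 1.37 FPKM or less, and BST2 at 266 FPKM lies slightly under 0.

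Most of the added transcript level came from members that were abundant in control cells. The summed level of the 50 members was 671.3, 662.0 and 678.2 FPKM in shNT and 741.7, 748.0 and 753.8 FPKM in shPRKCN libraries, which did not overlap, a ratio of 1.12. Without BST2 the sums were 408, 403 and 403 FPKM and 516, 517 and 524 FPKM, a ratio of 1.28. Members with a higher mean in knockdown cells gained 126 FPKM together, and UBE2L6, IFI16 and SHISA5 contributed 50.6 FPKM or 40.2% of that gain, with none of them past the fold limit. The 8 strong members contributed 9.65 FPKM, or 7.66%. The summed mean of members with a lower mean fell by 48.7 FPKM, and BST2, which fell by 36.8 FPKM, made up 75.6% of that loss.

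**Figure D4:**
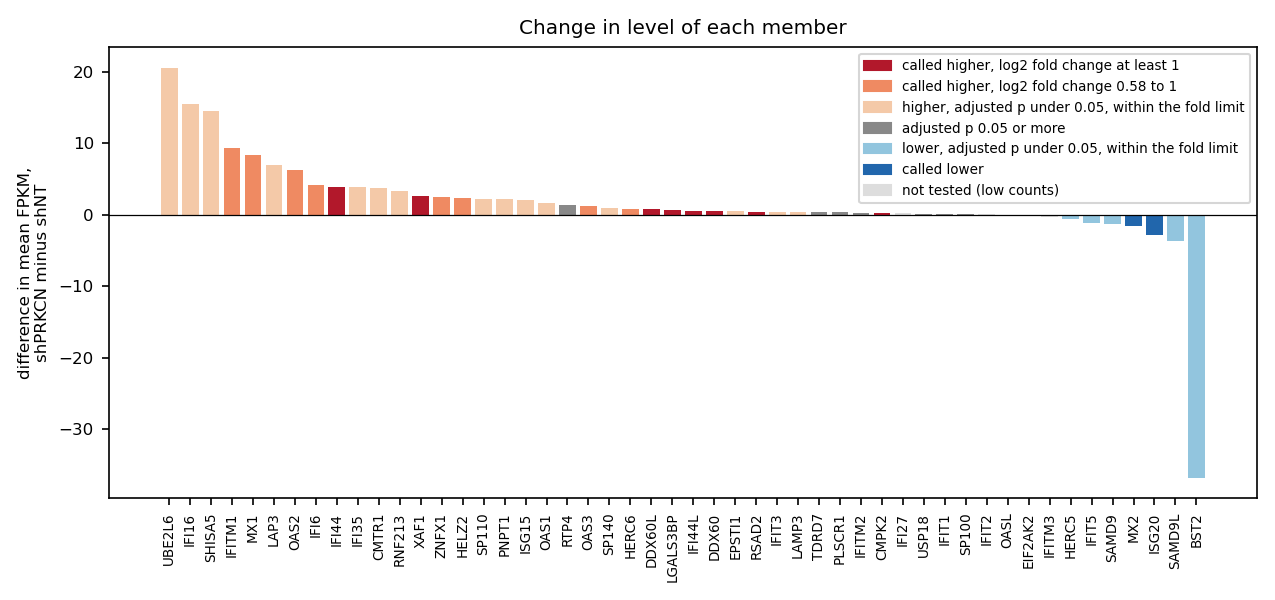
Difference in mean FPKM between shPRKCN and shNT libraries for each of the 50 members, ordered by size and coloured by call. UBE2L6 gained 20.6 FPKM, IFI16 15.5 FPKM and SHISA5 14.5 FPKM, while DDX60 gained 0.544 FPKM and BST2 fell by 36.8 FPKM.

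The genes that carry the interferon signal were read in the same fit. Of 22 interferon genes of types I, II and III, 3 were listed in the files, and none was tested. IFNE had 0, 0 and 0 reads in shNT and 1, 0 and 1 reads in shPRKCN libraries. IFNW1 had 1, 0 and 0 reads and 0, 0 and 1 reads. IFNG had 0, 0 and 0 reads and 2, 0 and 1 reads. No more than 2 reads thus fell on a listed interferon gene in any library, and transcription at a lower level or at another time was not measured. The remaining interferon genes, among them IFNB1 and those of the IFNA family, are not listed and were not taken as 0.

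All 26 receptors, transducers and regulators of the pathway were tested, and none was called higher, against 6.15% of all genes, while 3 (11.5%) were called lower, against 10.6%. Without the fold limit 9 (34.6%) were higher and 8 (30.8%) lower, against 26.5% and 27.8% of all genes, and 9 had an adjusted p of 0.05 or more. IRF9, the DNA-binding partner of STAT2, had 467, 417 and 443 reads in shNT and 692, 626 and 687 reads in shPRKCN libraries and was higher within the fold limit (log2 fold change 0.56, SE 0.0848, adjusted p = 6.0e-08). STAT2 had 6404, 6886 and 7007 reads in shNT and 6560, 6683 and 6722 reads in shPRKCN libraries (log2 fold change -0.06, 95% interval -0.13 to 0.01, adjusted p = 0.15). The interval of STAT2 lay within the fold limit.

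IRF4, the factor that plasma cells depend on and which binds related sites, had 22388, 23118 and 22846 reads in shNT and 6585, 6438 and 6455 reads in shPRKCN libraries and fell (log2 fold change -1.85, SE 0.0348, adjusted p = 5.7e-52). JAK2, a kinase of the type II receptor, fell from 527, 549 and 592 reads to 336, 308 and 335 reads (log2 fold change -0.81, SE 0.0941, adjusted p = 2.3e-11). SOCS3, a feedback inhibitor of cytokine receptors, fell from 79, 86 and 74 reads to 56, 33 and 24 reads (log2 fold change -1.12, SE 0.271, adjusted p = 3.3e-04). The receptors and kinases of the type I pathway stayed within the fold limit, at log2 fold changes of -0.12 for IFNAR1, 0.10 for IFNAR2, 0.25 for JAK1 and 0.29 for TYK2.

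Promoter sequence was examined because the members share a known response element. The core of the ISRE was searched as GAAA, any 2 bases and GAAA, on either strand, in the 250 bases before each RefSeq gene start (GRCh38.p14). Of the 42 members with a promoter entry, 24 (57.1%) held at least 1 match, against 1014 of 27305 genes (3.71%) in the same windows. The core of the interferon gamma activated site, TTC, any 3 bases and GAA, was found in 10 members (23.8%) and in 2208 genes (8.09%), and in 4 members (IFI27, MX1, EPSTI1 and BST2) a match to it overlapped an ISRE match. More than 1 ISRE match in a window was found for DDX60, DDX60L, IFI44L, IFI6, OAS3, ISG15 and IFIT3. The same held for IFIT1, RTP4, IFIT5, HERC5, BST2, IFI27 and IFITM3. No promoter entry was found for IFIT2, IFITM2, MX2, OAS2, OASL, LAMP3, USP18 and ZNFX1.

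ISRE matches occurred in every response class. They were present in 6 of 8 strong members, 4 of 6 with smaller called rises, 4 of 14 higher within the limit, 3 of 6 with an adjusted p of 0.05 or more, 5 of 6 lower members and both untested members with an entry. XAF1 and CMPK2 were strong members without a match in these windows. The sequences of the 6 strong members with a match are shown first because they carried the largest changes, followed by IFIT1 and RTP4, whose change did not pass the test, and ISG20 and BST2, which were lower. Each is given 5′ to 3′ on the strand of the gene, with the GAAA units of whole matches, or TTTC where the match is on the other strand, in capitals.
DDX60 (chr4:168318786-168318815, minus strand, -63 to -34 from the start): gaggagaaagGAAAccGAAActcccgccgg
DDX60L (chr4:168480523-168480552, minus strand, -60 to -31): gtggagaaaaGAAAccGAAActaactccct
IFI44L (chr1:78620365-78620394, plus strand, -83 to -54): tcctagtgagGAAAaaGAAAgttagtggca
IFI44 (chr1:78649761-78649790, plus strand, -70 to -41): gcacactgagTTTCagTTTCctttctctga
RSAD2 (chr2:6877622-6877651, plus strand, -155 to -126): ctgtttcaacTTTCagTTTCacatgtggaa
LGALS3BP (chr17:78979962-78979991, minus strand, -68 to -39): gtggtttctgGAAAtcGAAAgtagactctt
IFIT1 (chr10:89392504-89392533, plus strand, -119 to -90): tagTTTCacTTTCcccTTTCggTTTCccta
RTP4 (chr3:187368333-187368362, plus strand, -52 to -23): tccatacacaGAAAcaGAAActgaaccgaa
ISG20 (chr15:88638937-88638966, plus strand, -79 to -50): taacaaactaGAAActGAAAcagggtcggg
BST2 (chr19:17405735-17405764, minus strand, -134 to -105): ctggGAAActGAAActGAAAacctaattaa

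DDX60 and DDX60L carried the same letters, GAAA, cc and GAAA followed by ct, at nearly the same distance from their starts. The windows of EPSTI1 at the same distance, of ISG15 and of the untested IFITM3 held these letters too. The log2 fold changes of EPSTI1 and ISG15 were 0.22 and 0.54. On the other strand, the windows of IFIT5 and of the untested IFI27 also held them, and the log2 fold change of IFIT5 was -0.53. IFIT1 held 2 matches in the shown window and BST2 2 overlapping ones. The change of IFIT1 did not pass the test (log2 fold change 0.14, 95% interval -0.23 to 0.51), and BST2 was lower. Because several members have more than 1 transcript start, all 30 bases of the LGALS3BP, RTP4 and ISG20 windows, 22 of the DDX60 window and 13 of the IFI44L window lie in an exon of another transcript of the same gene in GENCODE 29, whereas the other windows lie outside the annotated exons of their gene. A match is a run of letters, and binding to it was not measured here.

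**Figure D5:**
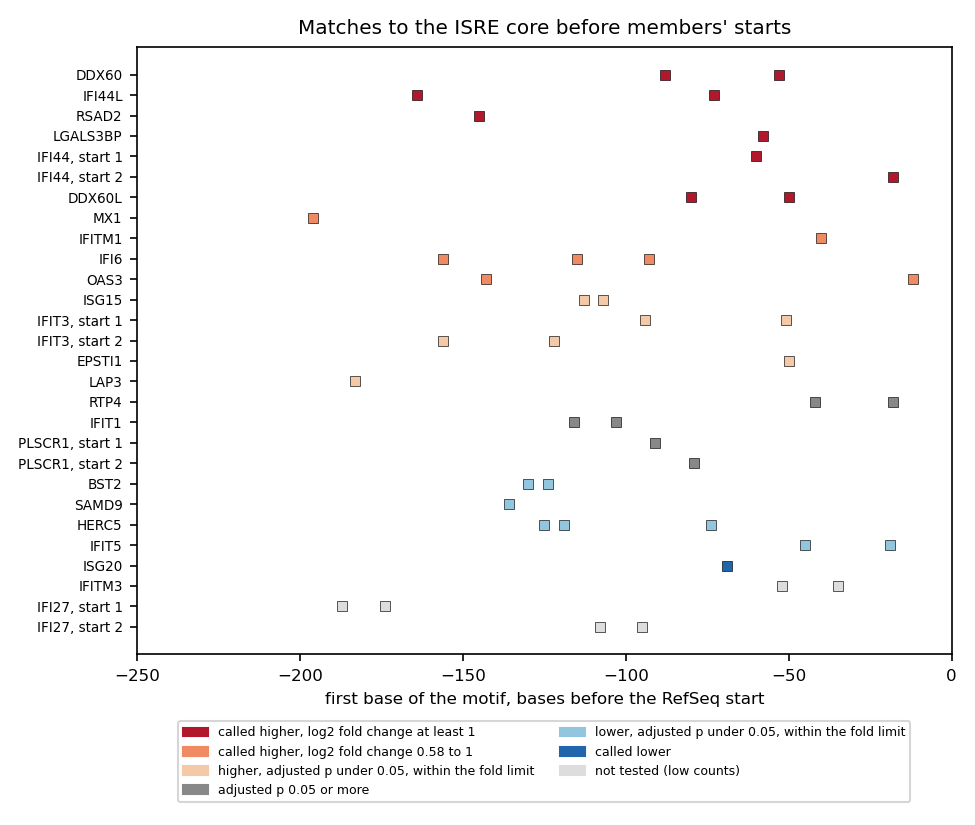
Position of each ISRE core match in the 250 bases before the RefSeq start, for the 24 members with a match, on the horizontal axis in bases before the start, with a row for each start that holds one. Squares are coloured by the call of the member, ordered by log2 fold change from the top, and matches appear from strong members such as DDX60 down to ISG20, which fell.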

How the data were processed

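MM.1S cells infected with scramble shRNA (shNT, 3 libraries) or PRKCN shRNA (shPRKCN, 3 libraries) were profiled by RNA-seq at day 3. The authors deposited whole-number read counts per gene, which were tested here as deposited, and FPKM values per gene, which were used here for levels compared between genes. FastQC, HISAT2, StringTie and the build GRCh38.p14 are named in the submitters' processing notes, and their versions, the annotation and the strand setting are not given in the sources used here. Library totals were 35625564 to 37730003 counts, which limits precision for genes with few reads.

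Groups were compared with edgeR 4.0.16 (TMM scaling, filterByExpr, quasi-likelihood test) in R 4.3.3 over 13971 genes, with Benjamini-Hochberg adjustment over all of them, and genes were called when the adjusted p was below 0.05 with a change of over 0.58 on the log2 scale. SE is the log2 fold change divided by the root of F, and intervals are at 95%. CPM are TMM-scaled. DESeq2 1.42.0, limma 3.58.1 (on log2 FPKM with a pseudocount of 1 or 0.1), other scalings, other filters, a replicate block and leaving out each library served as alternatives. On simulated counts the edgeR step recovered 198 of 200 planted changes with 2 false calls among 13809 genes, and the DESeq2 step 197 with 0 among 13971. The planted changes were of 1 or 2 on the log2 scale, up or down, in genes with a mean of over 1 CPM. Recovery of smaller changes, or in genes with fewer reads, was not simulated.

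No libraries were duplicates (chi-square per degree of freedom 3.38 to 4.8 within and 63.8 to 70.2 between groups). Per-library values were to be given for the 10 largest changes among members called higher with a mean of at least 50 counts, members called lower, the IFITM, IFIT, OAS and MX families, members with at most 3 counts in every library of a group (there were none), the 5 highest in control FPKM, and PRKD3, and for pathway genes where called, with the interferons, STAT2, IRF9 and IRF4 in any case. A further pathway gene of that rule is not reported here. Other genes were named after their values were seen. The members and lists were chosen with earlier results of these data known. RefSeq promoters (GRCh38.p14, 42 of 50 members matched) were searched for motifs with Python 3.11.15, and exon overlaps and shared 50-base stretches were taken from GENCODE 29.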

Additional observations from a re-analysis of the deposited data

How the results depend on the processing

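With edgeR's RLE size factors, library-size scaling, DESeq2, no filter on low counts, a mean of at least 10 counts, or limma on log2(FPKM + 0.1), the members called higher numbered 16 or 17 and those called lower 2. Limma on log2(FPKM + 1), where the pseudocount exceeds the level of low members, called 12 higher and 0 lower, with a median log2 difference of 0.28. It lost HERC6, OAS3, RSAD2, CMPK2, MX2 and ISG20. Without the fold limit 31 were higher and 7 lower. Leaving out each library in turn gave 17 to 18 higher, 2 to 3 lower and a median between 0.35 and 0.46, the highest without shNT replicate 2. The members gained were SP110, ISG15, IFIT3 and IFIT5 around the fold limit, and IFITM3 as lower without shNT replicate 3 and without shPRKCN replicate 2. Among members within the fold limit, IFIT3 (DESeq2 and 2 of these fits), LAMP3 (2) and EPSTI1 (1) lost an adjusted p under 0.05. PLSCR1, never called, ran from -0.03 to 0.09 over these fits. SP100, never called, ran from -0.03 to 0.03 over them and was 0.01 with library-size scaling, limma on log2(FPKM + 1) and limma on log2(FPKM + 0.1). The cause of these turns was not tested. Other scalings moved the median of all genes by at most 0.0195. Same-numbered libraries did not deviate together (correlations -0.0419, -0.0133 and 0.00381), so the replicate block is no pairing. It gave 16 and 2 members, a median of 0.37, and 854 and 1463 calls over all genes against 859 and 1475. Depth limits members with few reads, whose intervals reached from -0.87 to 1.45 for OASL.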
